A study of Mus musculus with 4 samples.

Results

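Immediate early genes are switched on by growth factors, stress or tissue handling without new protein synthesis, and their mRNAs are known for short lives. A group of 33 such genes, listed by gene symbol, was followed in RNA-seq of ID4-EGFP+ spermatogonia, and all 33 symbols were found among the 54920 genes listed. The group holds AP-1 subunits and their dimer partners, the EGR and NR4A transcription factors, KLF factors and *Myc*, dual-specificity MAP kinase phosphatases, the IER genes with *Nfkbia*, and the growth arrest genes *Btg2*, *Gadd45a*, *Gadd45b* and *Gadd45g*. Half-lives were not measured in these libraries, so "short-lived" is a property known from other work and was not checked here.

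The study asked how loss of CNOT3, a subunit of the CCR4-NOT deadenylase complex, changes the transcriptome of spermatogonial stem cells. Control mice carried Cnot3 flox/flox and *Id4-eGfp* without a Cre transgene (the labels call them wild-type), and in *Cnot3*-cKO mice *Ddx4*-creER was present in addition to both of these. Both groups therefore had the floxed alleles and the reporter, and both received 4-OHT from postnatal day 1 to day 3. Testes were dissociated with trypsin and Accutase at day 8 and EGFP+ cells were sorted, giving 2 control and 2 *Cnot3*-cKO libraries of total RNA. *Ddx4*-creER acts in germ cells, so that somatic cells that pass the sort keep *Cnot3* in both groups. How many mice went into a library, and how long each sample spent between dissection and lysis, is not given in the sources used here.

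In resting cells immediate early genes are poised, and signals through ERK, stress kinases, SRF and CREB raise their transcription within minutes. Their mRNAs then disappear quickly, because AU-rich elements in the 3′ UTR recruit RNA-binding proteins such as ZFP36 that bring CCR4-NOT to shorten the poly(A) tail. Several of the proteins feed back on the same pathways, since DUSP enzymes dephosphorylate MAP kinases and NFKBIA holds NF-κB in the cytoplasm. In spermatogonia the ERK pathway downstream of GDNF and FGF receptors is known for its part in self-renewal. The same genes are also induced by enzymatic dissociation of tissue.

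Library totals ranged from 22192964 counts in a *Cnot3*-cKO library to 43378493 in a control library, and 3 counts, taken as the floor of detection, correspond to 0.0712 to 0.132 CPM (counts relative to the TMM-scaled library total). *Cnot3* had 58.6 and 50.2 CPM in the control libraries and 19.2 and 19.9 CPM in the *Cnot3*-cKO libraries (log2 fold change -1.48, SE 0.13), as the labels say. Summed Sertoli cell markers were at 257 to 265 CPM in controls and 864 to 895 CPM in *Cnot3*-cKO libraries, and 11 of 12 were called higher. Macrophage markers summed to 134 to 210 CPM against 383 to 468 CPM with 7 of 10 called higher, and Leydig cell markers to 322 to 367 CPM against 830 to 895 CPM with 4 of 5 tested called higher, while *Insl3* had 0 counts in every library. Endothelial markers summed to 30.2 to 31.0 CPM against 42.4 to 51.2 CPM (2 of 5 tested called higher) and peritubular myoid markers to 13.9 to 16.5 CPM against 20.4 to 25.6 CPM (0 of 6). Blood cell markers summed to 7.502 to 7.985 CPM against 10.1 to 19.4 CPM (0 of 5). Pan-germ cell genes summed to 6216 to 6698 CPM against 5841 to 6044 CPM (0 of 14 called), and spermatogonial stem cell genes to 1147 to 1274 CPM against 1130 to 1179 CPM (2 of 12 called higher, *Id4* and *Eomes*, and 0 lower). At an adjusted p below 0.05 with any fold, 6 of these 12 were higher and 2 were lower, *Zbtb16* (-0.82) and *Sall4* (-0.42). All somatic cell types named here also express immediate early genes, and their part in the differences below was not tested. In sorted bulk samples, more cells of a type and more RNA per cell cannot be told apart.

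Of the 33 genes, 32 passed edgeR's expression filter and 6 were called higher in *Cnot3*-cKO cells: *Junb*, *Fosb*, *Nfkbia*, *Fos*, *Jun* and *Dusp6*. A gene was called where its fold change exceeded 2 and its adjusted p was below 0.01, and 4.03% of the 23952 tested genes were called higher in this way. None of the 32 was called lower by edgeR or by DESeq2, against 0.735% of all tested genes, although 2, *Nr4a3* and *Gadd45a*, had an unadjusted p below 0.05 in that direction with edgeR. With no limit on the fold change and an adjusted p below 0.05, 13 members were higher and 0 were lower, where 11.1% and 9.46% of all tested genes passed in these directions. The median log2 fold change of the 32 tested genes was 0.49, it was 0.01 over all tested genes, and 25 members lay above 0 where 50.8% of all genes did. In 17 members the lower *Cnot3*-cKO value was still above the higher control, and in 4 members the reverse held, and the corresponding shares of all tested genes were 30.5% and 28.6%. The summed level of all 33 genes was 405 and 407 CPM in controls and 584 and 658 CPM in *Cnot3*-cKO libraries, and *Dusp6* alone made up 36.0% of the difference.

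For a single member, the smallest two-sided p that exact permutation of 4 libraries in pairs allows is 0.333, and each adjusted p rests on the dispersion fitted across genes. None of the 6 calls held when the test itself required more than a 2-fold change (glmTreat, 0 members called), and the median of the members fell to 0.27 without *Cnot3*-cKO replicate 2.

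**Figure D1:**
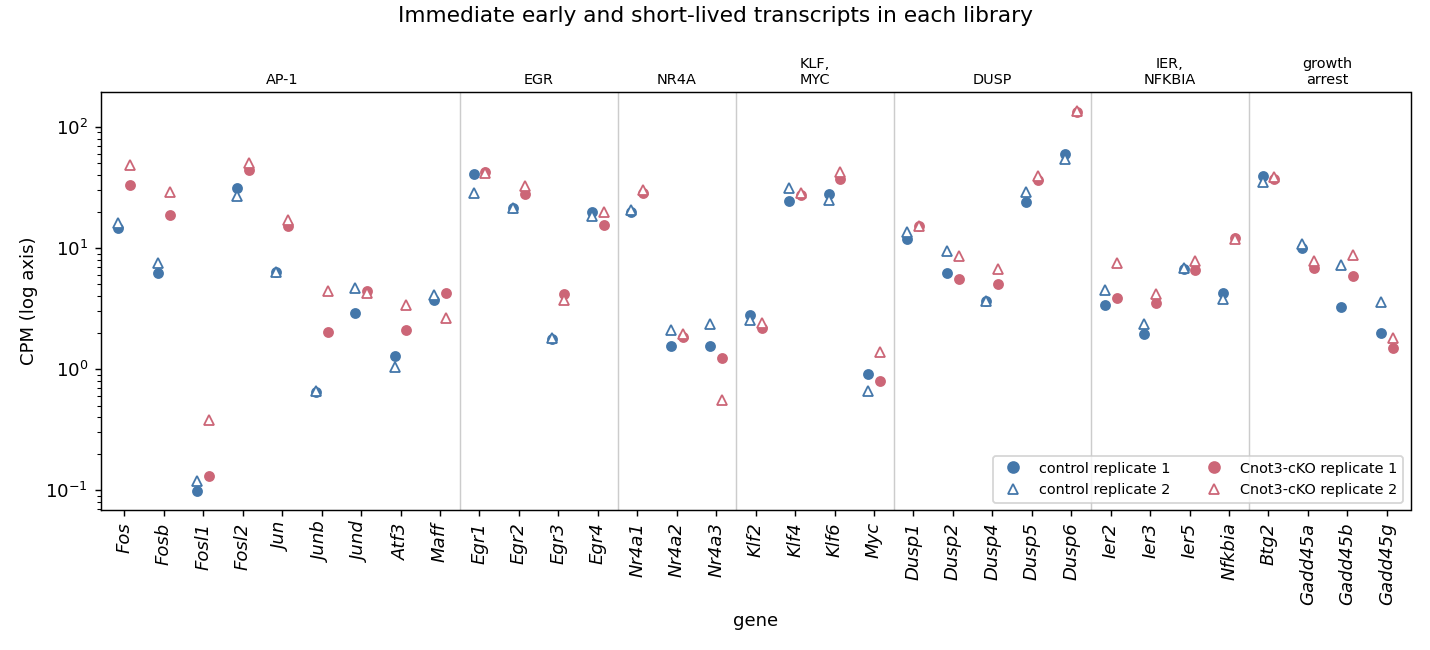
CPM of each member in each library on a log axis, with control libraries in blue, *Cnot3*-cKO libraries in red, circles for replicate 1 and triangles for replicate 2. *Fos*, *Fosb*, *Jun*, *Junb*, *Dusp6* and *Nfkbia* show both red points well above both blue points, while *Klf4* and *Btg2* overlap.

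AP-1 genes accounted for 4 of the 6 calls. FOS and JUN proteins form the leucine zipper dimers that bind AP-1 sites, and 4 of the 8 tested genes of this subgroup were called higher, with a subgroup median log2 fold change of 1.28. *Fos* had 14.5 and 16.0 CPM in the control libraries and 32.9 and 48.2 CPM in the *Cnot3*-cKO libraries. The groups did not overlap, and *Cnot3*-cKO replicate 2 was the highest library. The log2 fold change of *Fos* was 1.41 (SE 0.17, edgeR adjusted p = 1.87e-04), a 2.66-fold difference. *Fosb*, which encodes a close relative of FOS, had 6.25 and 7.45 CPM in controls and 18.6 and 28.8 CPM in *Cnot3*-cKO libraries. This was a log2 fold change of 1.79 (SE 0.21, edgeR adjusted p = 1.52e-04), again with replicate 2 the higher of the *Cnot3*-cKO libraries.

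*Jun*, the partner of FOS in the classical heterodimer, had the tightest controls of the subgroup at 6.37 and 6.39 CPM, and it had 15.1 and 16.9 CPM in *Cnot3*-cKO libraries (log2 fold change 1.33, SE 0.18, edgeR adjusted p = 3.68e-04). *Junb*, a JUN family member that can replace or oppose JUN, was at a low level, with 0.645 and 0.665 CPM (26 and 28 counts) in controls and 2.03 and 4.39 CPM (46 and 126 counts) in *Cnot3*-cKO libraries. Its log2 fold change of 2.30 was the largest among the members and also the least precise of the 6 called (SE 0.43, edgeR adjusted p = 0.00299). Without *Cnot3*-cKO replicate 2 it was 1.62 and no longer called. Over the leave-one-out fits *Jun* stayed between 1.24 and 1.40, *Fos* between 1.10 and 1.65 and *Fosb* between 1.43 and 2.06, and all 3 remained called.

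The other AP-1 members were not called. *Fosl2*, which encodes the long-lasting FOS relative FRA-2, had 31.1 and 27.1 CPM in controls against 43.9 and 50.6 CPM. Its groups did not overlap, but its log2 fold change of 0.70 (SE 0.13, edgeR adjusted p = 0.00239) was under the 2-fold limit. *Atf3*, a stress-induced factor of the ATF family, had 1.29 and 1.04 CPM in controls and 2.12 and 3.38 CPM in *Cnot3*-cKO libraries (log2 fold change 1.24, SE 0.38, edgeR adjusted p = 0.0346). It passed the 2-fold limit and missed the adjusted p, and it was called without *Cnot3*-cKO replicate 1. *Jund*, the constitutive JUN gene, had 2.93 and 4.68 CPM against 4.45 and 4.22 CPM, so that the groups overlapped (log2 fold change 0.19, 95% interval -0.43 to 0.81). *Maff*, a small MAF protein without an activation domain, had 3.70 and 4.11 CPM against 4.23 and 2.65 CPM (-0.19, 95% interval -0.83 to 0.45). *Fosl1*, which encodes FRA-1, had 4, 5, 3 and 11 counts in the 4 libraries and was not tested.

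The EGR factors, zinc finger proteins induced downstream of ERK and SRF, had 0 of 4 members called by edgeR or DESeq2, and their median log2 fold change was 0.39. *Egr1*, the growth factor-induced founder of the family, had 40.8 and 28.4 CPM in controls and 42.4 and 41.4 CPM in *Cnot3*-cKO libraries. The spread between the controls exceeded the gap between control replicate 1 and the *Cnot3*-cKO libraries (log2 fold change 0.28, SE 0.16, edgeR adjusted p = 0.246). Leaving out a library at a time moved this value from 0.03 to 0.55. *Egr2* had 21.2 and 21.4 CPM in controls and 28.1 and 32.4 CPM in *Cnot3*-cKO libraries, a log2 fold change of 0.51 (SE 0.14, edgeR adjusted p = 0.0208). *Egr3* had the largest difference of the family, from 1.79 and 1.80 CPM to 4.14 and 3.70 CPM (1.12, SE 0.29, edgeR adjusted p = 0.0170). It lacked only the adjusted p for a call, and it was called when no filter on low counts was used. *Egr4* had 19.9 and 18.4 CPM against 15.4 and 19.6 CPM, with overlapping groups and a log2 fold change of -0.13 (95% interval -0.48 to 0.23).

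Among the NR4A orphan nuclear receptors, which act without a known natural ligand, 0 of 3 were called by edgeR or DESeq2 and the median was 0.05. *Nr4a1* was the highest of them per kilobase in controls. It had 19.8 and 20.5 CPM in controls and 28.2 and 30.1 CPM in *Cnot3*-cKO libraries, and replicates differed far less than the groups (log2 fold change 0.53, SE 0.13, edgeR adjusted p = 0.0145). *Nr4a2* did not separate the groups, at 1.56 and 2.11 CPM against 1.85 and 1.95 CPM. *Nr4a3* had the lowest log2 fold change of all members at -1.16 (SE 0.47, edgeR adjusted p = 0.105). It rested on 63 and 100 counts in controls and 28 and 16 counts in *Cnot3*-cKO libraries, and it was -0.68 to -1.82 as single libraries were left out.

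Of the KLF factors and *Myc*, 0 of 4 were called by edgeR or DESeq2, with a median of 0.24. *Klf6*, a zinc finger factor of the acute response, had 28.1 and 24.7 CPM in controls and 36.9 and 42.5 CPM in *Cnot3*-cKO libraries, a log2 fold change of 0.59 (SE 0.13, edgeR adjusted p = 0.00765) that did not reach 2-fold. *Klf4*, known as a reprogramming factor, had 24.3 and 31.2 CPM against 27.2 and 28.4 CPM. Its log2 fold change was 0.00 with a 95% interval from -0.32 to 0.32, its sign turned with several settings, and both *Cnot3*-cKO libraries lay between the controls. *Klf2* had 2.80 and 2.54 CPM against 2.20 and 2.41 CPM (-0.21, 95% interval -0.87 to 0.45). *Myc*, the growth-promoting factor whose mRNA is a classical target of rapid decay, was near the lower end of the tested range at 0.918 and 0.665 CPM against 0.794 and 1.39 CPM. With 18 to 40 counts per library, a change of *Myc* of up to 1.60 on the log2 scale was within its 95% interval.

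**Figure D2:**
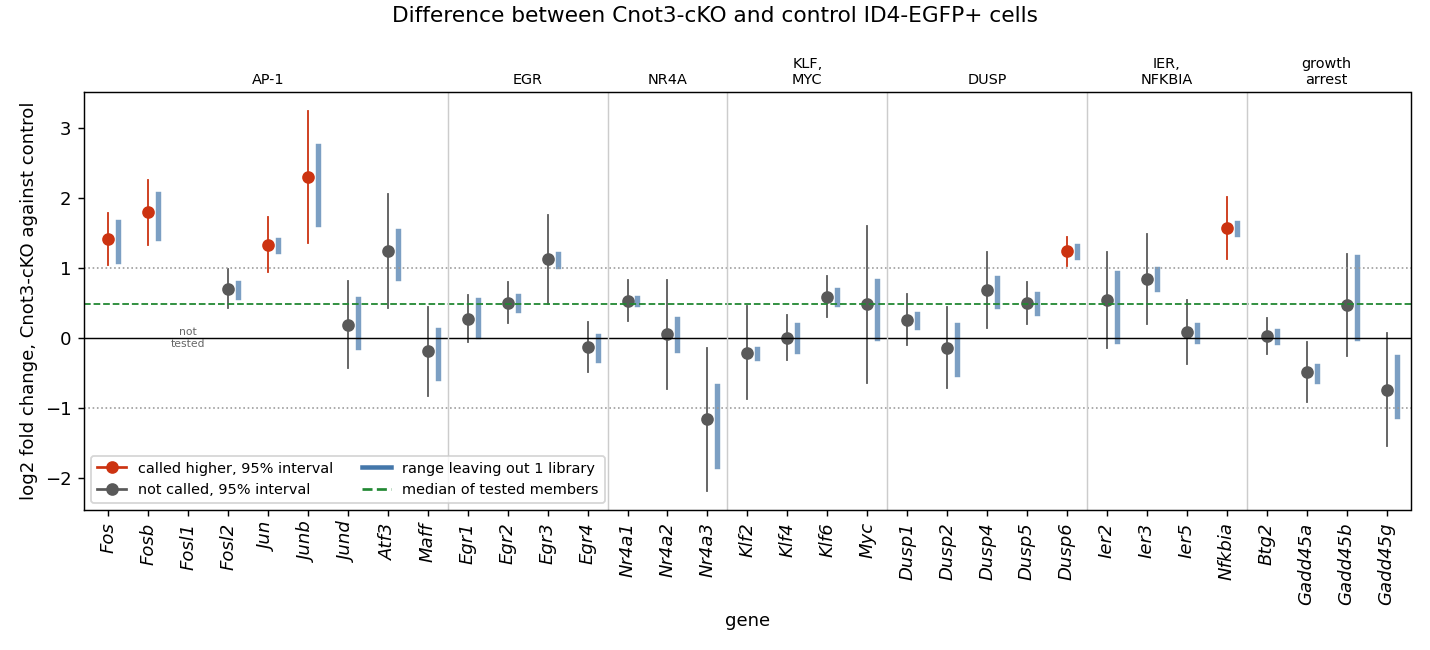
log2 fold change of each tested member with its 95% interval from the fit across all genes (red, called higher; grey, not called), beside the range when 1 library at a time is left out (blue bars); the green dashed line is the median of the tested members. The 6 called genes have intervals above 1 apart from *Jun*, and *Junb* has the widest interval among them.

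*Dusp6* was the strongest result among the phosphatases and the most precise of all members. DUSP6 removes phosphate from ERK in the cytoplasm, and its gene is itself an ERK target. It had 60.1 and 53.8 CPM in controls and 133 and 136 CPM in *Cnot3*-cKO libraries. The replicates of each group lay close together beside the gap between the groups (log2 fold change 1.24, SE 0.10, edgeR adjusted p = 6.15e-06). *Dusp5*, a nuclear ERK phosphatase, had 24.1 and 29.1 CPM against 36.1 and 39.0 CPM (0.50, SE 0.14, edgeR adjusted p = 0.0210). *Dusp4*, another nuclear enzyme, had 3.65 and 3.68 CPM against 5.03 and 6.70 CPM (0.68, SE 0.25, edgeR adjusted p = 0.0747). Both showed no overlap of the groups and neither was called. *Dusp1*, the phosphatase of p38 and JNK known for its response to stress, had 11.8 and 13.4 CPM against 15.2 and 15.1 CPM (0.26, 95% interval -0.10 to 0.62). *Dusp2* spread more widely within the groups than between them, with 6.22 and 9.40 CPM in controls and 5.51 and 8.65 CPM in *Cnot3*-cKO libraries (log2 fold change -0.14).

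*Nfkbia*, which encodes the inhibitor IκBα and is induced by NF-κB itself, had 4.22 and 3.80 CPM in controls and 12.1 and 11.8 CPM in *Cnot3*-cKO libraries. The *Cnot3*-cKO replicates differed by 0.04 on the log2 scale, against a log2 fold change of 1.57 (SE 0.20, edgeR adjusted p = 2.65e-04). The IER genes, named for immediate early response, were not called. *Ier3*, a survival factor, had 1.93 and 2.35 CPM against 3.48 and 4.18 CPM (0.84, SE 0.29, edgeR adjusted p = 0.0617). *Ier2* had 3.37 and 4.51 CPM against 3.84 and 7.57 CPM, so that only *Cnot3*-cKO replicate 2 stood above the controls. *Ier5* was level at 6.77 and 6.81 CPM against 6.61 and 7.78 CPM (0.09, 95% interval -0.37 to 0.54).

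The growth arrest genes, which encode antiproliferative and DNA damage response proteins, had 0 of 4 members called by edgeR or DESeq2. *Btg2*, whose protein binds the CNOT7 and CNOT8 deadenylases, had 39.5 and 35.2 CPM against 37.4 and 38.8 CPM, and the 95% interval of its log2 fold change was -0.23 to 0.29. *Gadd45a* lay below the controls in both *Cnot3*-cKO libraries, at 9.92 and 10.7 CPM against 6.79 and 7.88 CPM (-0.49, SE 0.20, edgeR adjusted p = 0.102). *Gadd45g* had 1.98 and 3.56 CPM against 1.499 and 1.81 CPM (-0.74, SE 0.37, edgeR adjusted p = 0.190). Neither difference passed the test. *Gadd45b* had the largest gap between controls of all tested members, 3.27 and 7.29 CPM, against 5.91 and 8.68 CPM in *Cnot3*-cKO libraries. It was called higher without control replicate 2, at a log2 fold change of 1.15, and stood at -0.01 without control replicate 1. The subgroup median was -0.23, where AP-1 had 1.28; no test of this difference was made.

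Levels between genes were compared per kilobase of exon (GENCODE M21, GRCm38). *Dusp6* ranked first of 33 in both groups, at 18.2 ± 1.42 CPM per kb (SD, n = 2) in controls and 42.9 ± 0.789 (SD, n = 2) in *Cnot3*-cKO cells. *Btg2* (13.6 ± 1.13), *Dusp5* (10.8 ± 1.43) and *Klf4* (9.10 ± 1.60) followed in controls (CPM per kb, SD, n = 2), and the SD ranges overlapped between *Dusp5* and *Klf4*, between *Klf4* and *Egr4* and between *Egr4* and *Egr1*. *Fos* moved from rank 7 at 6.50 ± 0.449 to rank 2 at 17.2 ± 4.60 CPM per kb, although its spread in *Cnot3*-cKO cells reached down to *Dusp5* at 15.2 ± 0.822 and *Btg2* at 13.9 ± 0.357. *Jun* moved from rank 21 to rank 12 and *Nfkbia* from rank 17 to rank 11. *Fosb* per kb was at 1.10 ± 0.137 in controls and 3.79 ± 1.16 in *Cnot3*-cKO cells, below *Fos* in both.

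Most members were higher in replicate 2 than in replicate 1, in both groups. *Cnot3*-cKO replicate 2 was above replicate 1 for 25 of 32 tested members, where 50.4% of all tested genes were, and the median difference was 0.20 on the log2 scale against 0.00. It was 0.63 for *Fosb*, 0.55 for *Fos*, 0.97 for *Ier2*, 0.66 for *Atf3* and 1.09 for *Junb*, while *Dusp6* (0.04), *Nfkbia* (-0.04), *Egr1* (-0.03) and *Dusp1* (-0.01) were level. Between the controls, replicate 2 was above replicate 1 for 22 of 32 tested members, where 48% of all tested genes were. The median difference there was 0.04 against -0.02. The group difference exceeded both replicate differences in 19 of 32 members, in all 6 called ones among them, and in 48.6% of all tested genes. No label or method names a batch that separates the replicates.

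**Figure D3:**
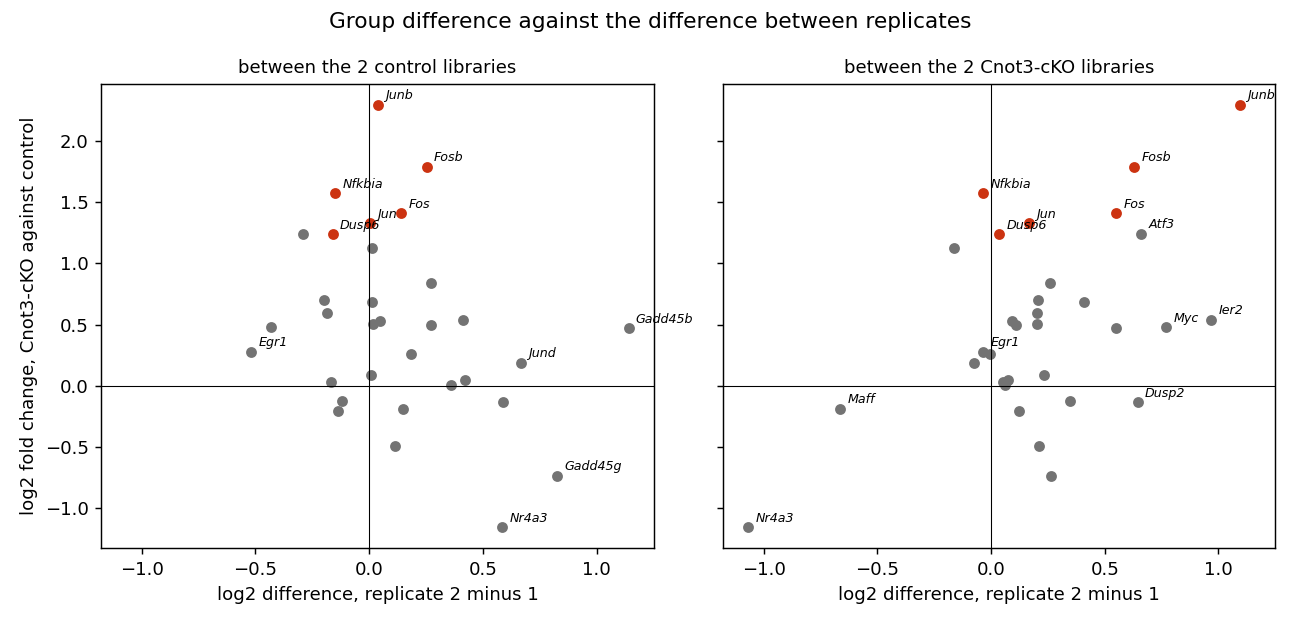
log2 fold change between groups (vertical axis) against the log2 difference between the replicates of a group (horizontal axis), for controls on the left and *Cnot3*-cKO libraries on the right, with 1 point per tested member and called genes in red. Most points on the right lie to the right of 0, with *Junb*, *Ier2*, *Myc*, *Atf3* and *Dusp2* farthest out.

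AU-rich elements were read in the 3′ UTRs of the members, because they are the sequence feature best known for rapid decay of these mRNAs. The pentamer searched was ATTTA in DNA letters (AUUUA in the mRNA), on the transcript strand only, in 1 coding transcript per gene, and overlapping copies were counted. It was present in the 3′ UTR of 29 of 33 members, and in 64.6% of 15653 tested genes with a 3′ UTR. The longer form TATTTAT, which always holds a pentamer, was present in 18 of 33 members (54.5%), against 26.6% of tested genes. With 3′ UTR lengths between 563 and 1233 bases, the quartiles of the members, it was present in 10 of 17 members and 22.3% of 3768 tested genes. The list was put together from mRNAs known to be unstable, so that this difference is partly a property of the choice. Windows of 30 bases with the most pentamers are shown for the 6 genes called higher and for *Ier3*, *Dusp1* and *Dusp2*, the members with the most pentamers per kilobase. They were taken from GENCODE M21 transcripts on GRCm38, 5′ to 3′ along the mRNA, with pentamers in capitals.
*Fos*: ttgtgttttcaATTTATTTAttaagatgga
*Fosb*: cccacccccagctATTTAtccctttcctgg
*Jun*: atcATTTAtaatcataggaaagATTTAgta
*Junb*: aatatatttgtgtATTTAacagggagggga
*Dusp6*: gttttgagctggaATTTAttataagaatgt
*Nfkbia*: aggaccacgttttATTTAttgtgcttttga
*Ier3*: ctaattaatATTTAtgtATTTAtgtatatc
*Dusp1*: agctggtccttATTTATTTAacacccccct
*Dusp2*: aaattaATTTAattaattaATTTActatat

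These windows lie on the forward strand at chr12:85477100-85477129 (*Fos*), chr10:99267419-99267448 (*Dusp6*), chr17:35822484-35822513 (*Ier3*) and chr2:127337998-127338027 (*Dusp2*). On the reverse strand they lie at chr7:19303326-19303355 (*Fosb*), chr4:95049207-95049236 (*Jun*), chr8:84977127-84977156 (*Junb*), chr12:55489608-55489637 (*Nfkbia*) and chr17:26506157-26506186 (*Dusp1*). *Fos* and *Dusp1* both carry a tandem repeat in which the end of a pentamer is the start of the next. *Fos* was called higher (log2 fold change 1.41) and *Dusp1* was not called (0.26). A part of these repeats in the differences was not tested. The number of pentamers per kilobase of 3′ UTR was 4.91 in *Fos*, 4.12 in *Junb*, 3.91 in *Nfkbia* and 3.24 in *Jun*, but 0.841 in *Dusp6* and 0.466 in *Fosb*. It reached 8.16 in *Ier3*, 6.88 in *Dusp2*, 5.80 in *Dusp1* and 5.52 in *Nr4a1*, none of which was called. All 6 called members had a pentamer, as did 22 of the 26 tested and not called. The median number per kilobase was 3.58 in the called members and 2.06 in those not called. Pooled over all their 3′ UTR bases, it was 2.195 and 2.192 per kilobase. TATTTAT was in 4 of the 6 called and 13 of the 26 not called, and no test of these differences was made. The 4 members with 0 pentamers were *Egr4*, *Ier2*, *Gadd45b* and *Gadd45g*.

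**Figure D4:**
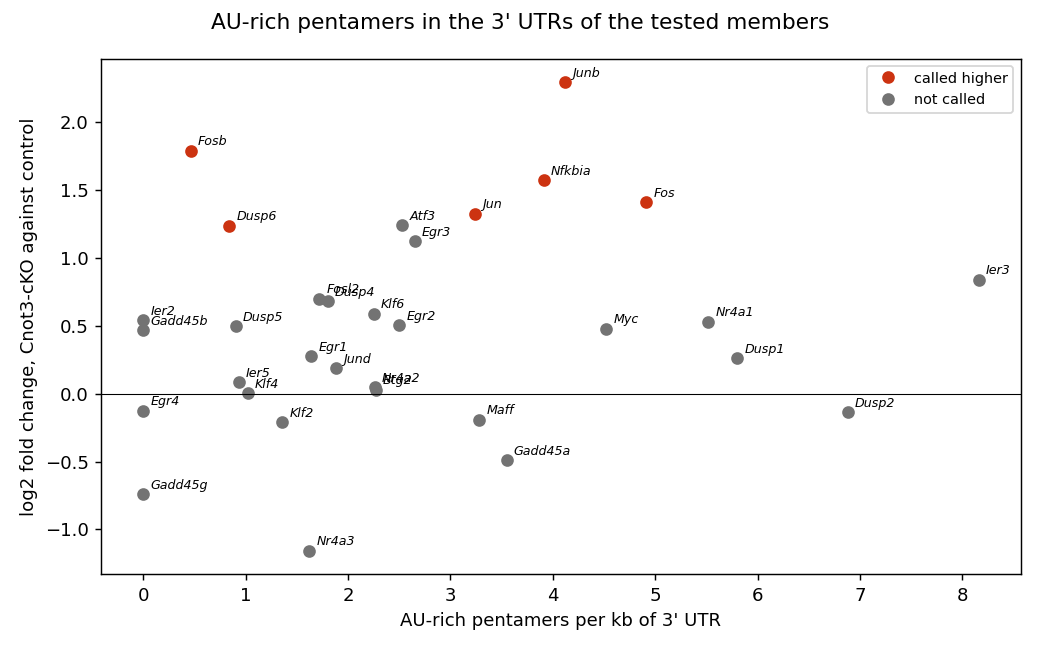
Number of AU-rich pentamers per kilobase of 3′ UTR (horizontal axis) against the log2 fold change between *Cnot3*-cKO and control cells (vertical axis) for the 32 tested members, with called genes in red. Called genes stand at both low (*Fosb*, *Dusp6*) and high (*Fos*, *Junb*) density, and the genes of highest density, *Ier3* and *Dusp2*, are not called.

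Promoter windows from 250 bases before to 50 bases after the start site, from RefSeq on GRCm38.p6, were found for 27 of the 33 members and searched on both strands. The CArG box, the site of SRF, was in the windows of 2 of 27 members (*Egr2* and *Dusp5*) and of 1.81% of 27025 genes. The CREB site TGACGTCA was in 3 (*Dusp1*, *Btg2* and *Maff*) and in 2.03% of genes. The AP-1 site TGANTCA was in 0 of 27 and in 8.97% of genes, and the EGR site GCGTGGGCG was in 1 (*Maff*) and in 0.707%. A κB site, the site of NF-κB, was in 9 of 27 members and in 9.55% of genes, and the TATA motif TATAAA was in 6 and in 15.7%. Among the 13955 tested genes with a window, the shares were 11.9% for the κB site, 10.1% for TATAAA and 6.82% for the AP-1 site. They were 3.07% for the CREB site, 1.60% for the CArG box and 1.26% for the EGR site. Matches of different motifs may overlap and were counted separately. The κB site was in the windows of 3 called members, *Fos*, *Fosb* and *Nfkbia*, and of 6 that were not called, *Fosl2*, *Egr2*, *Egr4*, *Ier3*, *Nr4a1* and *Maff*. *Egr2* holds its κB sites and a further CArG box at other start sites, which are not printed. A link between a site and a call was not tested. The windows printed here are 30 bases on the strand of the gene with the site in capitals. They are examples of a κB site (*Nfkbia*, called higher) and of CArG boxes (*Egr2* and *Dusp5*, not called).
*Nfkbia*: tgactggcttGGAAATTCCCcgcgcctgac
*Egr2*: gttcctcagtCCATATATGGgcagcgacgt
*Dusp5*: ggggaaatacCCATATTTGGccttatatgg

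The *Nfkbia* window lies at chr12:55492657-55492686 on the reverse strand, the *Egr2* window at chr10:67537787-67537816 and the *Dusp5* window at chr19:53529053-53529082, both on the forward strand. In *Dusp5* a further CArG box follows directly, starting at position -72 from the start site after the one at -82. A match in these windows is a description of letters, and sites outside the windows were not searched.

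Genes around the members were described from lists of related function. For comparison, 4.03% of all tested genes were called higher and 0.735% lower. Of 28 other early and short-lived transcripts, 2 were called higher and 0 lower, and the median log2 fold change was 0.22. Leaving out *Cnot3*-cKO replicate 2 lowered it to 0.094, and leaving out control replicate 1 to 0.12. *Ccn1*, a matricellular protein induced by SRF and YAP, rose from 2.63 and 2.28 CPM to 14.2 and 13.1 CPM (2.47, SE 0.21, edgeR adjusted p = 1.54e-05). *Plk2*, a polo-like kinase, rose from 22.2 and 25.05 CPM to 57.7 and 50.8 CPM (1.20, SE 0.12, edgeR adjusted p = 6.10e-05). The gene of the list with the most CPM in controls, *Klf10*, had 226 CPM in both controls and 189 and 181 CPM in *Cnot3*-cKO libraries (-0.29, SE 0.08, edgeR adjusted p = 0.0233).

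The ERK feedback list holds genes that ERK signalling induces and that mostly dampen it, and 1 of its 10 genes was called higher, with a median of 0.49. Leaving out 1 library gave medians from 0.33 (without control replicate 2) to 0.55 (without control replicate 1). *Spred3*, an inhibitor of RAS activation, rose from 1.49 and 1.57 CPM to 4.72 and 4.08 CPM (1.52, SE 0.29, edgeR adjusted p = 0.00333). *Etv4* and *Etv5*, transcription factors induced by GDNF and FGF, had log2 fold changes of 0.67 (SE 0.12, edgeR adjusted p = 0.00197) and 0.54 (SE 0.11, edgeR adjusted p = 0.00452), and *Spry4* had 0.94 (SE 0.21, edgeR adjusted p = 0.00807), all under the 2-fold limit. *Spry4* was at 18.4 and 10.7 CPM in the controls, which differed more than its *Cnot3*-cKO libraries (26.4 and 29.5 CPM). *Errfi1*, an inhibitor of the EGF receptor, had -0.45 (SE 0.10, edgeR adjusted p = 0.00785), so that the genes of this list did not all move alike. *Spred1*, the highest in CPM in controls, had 139 and 135 CPM against 147 and 158 CPM (0.16, 95% interval -0.03 to 0.34).

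Genes upstream of the members had medians below 0. In the list of SRF, ternary complex and CREB factors, 1 of 12 was called higher and 0 lower, with a median of -0.30. The called gene was *Elk3*, an SRF partner, from 1.81 and 1.59 CPM to 4.85 and 4.39 CPM (1.44, SE 0.28, edgeR adjusted p = 0.00396). Of the 12, 6 were lower and 1 was higher at an adjusted p below 0.05 with no fold limit. Over all tested genes these shares were 9.46% and 11.1%. The gene of this list with the most CPM, by the mean of the controls, was *Mrtfb*, an SRF coactivator, at 137 and 109 CPM against 91.3 and 82.5 CPM (-0.50, SE 0.12, edgeR adjusted p = 0.00856). Of 20 genes of the ERK and stress kinase cascade, 0 were called in either direction by edgeR. At an adjusted p below 0.05 with any fold, 2 were higher and 7 lower, where 11.1% and 9.46% of all tested genes were. The median of this list was -0.21 (-0.14 without control replicate 2).

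Among 7 other MAP kinase phosphatases 0 were called in either direction by edgeR, with a median of -0.22. The sign of this median depended on *Cnot3*-cKO replicate 1, as it was 0.064 without that library, -0.077 without control replicate 2 and -0.38 without control replicate 1. *Dusp9*, a cytoplasmic ERK phosphatase like *Dusp6* and the highest of the 7 in CPM in controls, had 74.9 and 92.1 CPM in controls and 49.1 and 56.8 CPM in *Cnot3*-cKO libraries. Its log2 fold change of -0.66 (SE 0.12, edgeR adjusted p = 0.00263) was opposite in sign to that of *Dusp6*. The heat shock genes, which dissociation and warming also induce, had 1 of 11 called higher, 0 lower and a median of 0.12. This median was 0.064 without control replicate 1 and 0.057 without *Cnot3*-cKO replicate 1. With scaling to the pan-germ cell genes it was 0.23, where the median of all tested genes was 0.13. The called gene was *Hspb1*, which encodes a small heat shock protein, from 1.79 and 1.95 CPM to 6.75 and 7.88 CPM (1.97, SE 0.25, edgeR adjusted p = 2.59e-04). *Hspa1a*, a stress-inducible HSP70 gene, had a log2 fold change of 0.12 (95% interval -0.45 to 0.68). *Hspa1b*, another HSP70 gene of the list, had 6.70 and 8.74 CPM in controls against 10.8 and 12.8 CPM in *Cnot3*-cKO libraries. Its log2 fold change was 0.61 (SE 0.21, edgeR adjusted p = 0.0536), and it was not called. *Hsp90ab1*, the gene with the most CPM in controls, had -0.50 (SE 0.08, edgeR adjusted p = 9.34e-04). *Hsp90aa1* had the most CPM in *Cnot3*-cKO libraries, with a log2 fold change of 0.06 (SE 0.07, edgeR adjusted p = 0.660). Over the 88 genes of these 6 lists 5 were called higher and 0 lower, where 4.03% and 0.735% of all tested genes were.

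**Figure D5:**
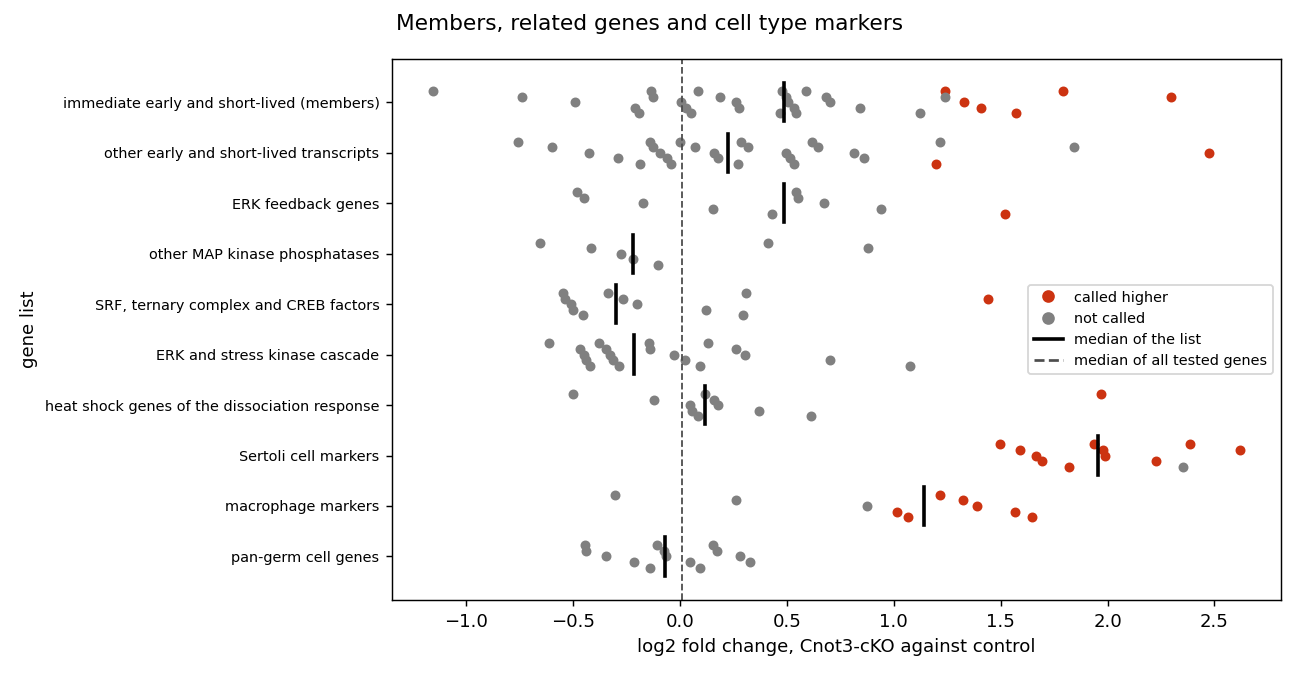
log2 fold change of each tested gene (points; red, called higher; grey, not called), with the median of each list (black bars) and of all tested genes (dashed line). The members and the ERK feedback genes have medians near 0.49, the kinase cascade and SRF lists lie below 0, and the Sertoli cell and macrophage markers lie farthest to the right.

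Exons of 7 members overlap those of a gene on the other strand in GENCODE M21. *Junb* shares 173 of 2301 exonic bases with *Prdx2*, an abundant peroxiredoxin gene with a log2 fold change of 0.50, and *Jun* shares 232 of 3189 with the antisense gene *Junos* (0.53). *Gadd45a* shares 337 of 1764 bases with *E230016M11Rik*, *Dusp1* shares 11 bases with *Ergic1*, and *Fosl1* shares 1163 of 2033 bases with *Ccdc85b*. *Jund* shares 877 of 1668 bases with *Gm11175*, which had 0 CPM in both groups. *Dusp5* shares 547 of 2473 bases with *AC137853.2*. The library kit marks strand, but the strand setting of the counting is not given in the sources used here, so reads in the shared bases could belong to either gene. *Fos*, *Fosb*, *Dusp6* and *Nfkbia* share no exonic bases with another annotated gene.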

How the data were processed

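RNA-seq of sorted ID4-EGFP+ cells from day 8 testes covered 2 libraries per group, control and *Cnot3*-cKO. The authors deposited raw read counts per gene, 1 library per file: per the labels and the study's methods, quality-filtered reads were aligned to mm10 with STAR and counted with featureCounts on GENCODE annotation. The study's methods name a later GENCODE release for the counting than M21, which was used here for exonic lengths and 3′ UTRs. Strand and multi-mapping options are not given in the sources used here.

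Counts were compared with edgeR 4.0.16 in R 4.3.3 (default expression filter, TMM scaling, quasi-likelihood F test, Benjamini-Hochberg adjustment over 23952 tested genes), without covariates. Calls needed more than a 2-fold change with an adjusted p under 0.01. The study used DESeq2, and DESeq2 1.42.0 was an alternative here. Intervals of 95% and SEs come from the fitted dispersions (common biological coefficient of variation 0.145). Differences between replicates are in log2 CPM with a prior count of 2. The study describes its RNA-seq replicates as biological but states another number of them than the 2 per group analysed here, and the labels do not tie libraries to animals, so p-values measure only the spread between these libraries, which may be technical.

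Genes were the 33 members, named in full. Of the related lists, called genes and the gene with the highest CPM in controls (not per length) were given. *Spry4*, *Etv4*, *Etv5*, *Errfi1*, *Hspa1a*, *Hspa1b*, *Hsp90aa1*, *Zbtb16*, *Sall4*, *Id4* and *Eomes* were added after their values were seen. For 1 list the gene with the highest CPM is not reported here. Members and lists were chosen with earlier results of these data known. Coordinates, exonic lengths and 3′ UTRs came from GENCODE M21 (GRCm38, the assembly also named mm10), with the transcript of the longest coding part, and promoters from RefSeq. The procedure was tested on simulated data. Figures were drawn with matplotlib 3.10.9 in Python 3.11.15.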

Additional observations from a re-analysis of the deposited data

How the results depend on the processing

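Under 17 alternative settings *Cnot3* and the 6 called members kept their direction. The 6 calls held under every setting except 2: *Junb* was lost without *Cnot3*-cKO replicate 2, and glmTreat, which tests for more than a 2-fold change, left 0 members, 0 AP-1 members and 1 related gene called higher and took *Cnot3* (-1.48) to an adjusted p of 0.0346, since it asks for more by construction. Leaving out 1 library gave 5 to 7 members called higher, 3 to 5 AP-1 members, 6 to 8 related genes (5 with all libraries), and member medians from 0.27 to 0.59. With no fold change limit, 11 related genes were higher and 5 lower. Scaling to pan-germ cell genes put the median over all tested genes at 0.13, and no member turned its sign under it. The same scaling put the list medians at 0.34 for other early transcripts, 0.60 for ERK feedback genes and 0.23 for heat shock genes. For the SRF and CREB, kinase cascade and other phosphatase lists it gave -0.18, -0.097 and -0.11. The replicate numbers pair libraries by number only (correlation of deviations 0.0825 over 15514 genes), and with the replicate block the same 6 members were called higher, 0 lower, and no other call of a member changed.

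Signs turned in 10 of 32 members, none of them called. *Klf4* was -0.0092 with DESeq2 size factors, -0.025 without a filter, -0.024 with DESeq2 and -0.020 after thinning to the smallest library, and thinning also turned *Dusp2* (0.017) and *Nr4a2* (-0.063). Leaving out 1 library gave ranges of -0.13 to 0.55 for *Jund*, -0.32 to 0.026 for *Egr4*, -0.046 to 0.93 for *Ier2*, -0.043 to 0.19 for *Ier5*, -0.51 to 0.18 for *Dusp2*, -0.17 to 0.27 for *Nr4a2*, -0.18 to 0.18 for *Klf4*, -0.064 to 0.10 for *Btg2*, -0.0074 to 1.15 for *Gadd45b* and -0.57 to 0.11 for *Maff*. Why these signs turned was not tested. Depth limits *Junb*, *Myc*, *Nr4a3* and *Atf3* most, with 16 to 126 counts per library.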

Other observations

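The AU-rich heptamer held by 18 of the 33 members was also counted across all tested genes. Among 11482 tested genes with 0 copies of TATTTAT in the 3′ UTR, 5.63% were called higher and 0.845% lower. With 1 copy these shares were 5.17% and 1.35% of 2746 genes, and with 2 or more copies 5.75% and 1.12% of 1425 genes. The median log2 fold changes of the 3 classes were 0.02, -0.03 and -0.04. These shares were looked at after the results for the members were known, and genes are not independent replicates.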
